A study of Homo sapiens and Mus musculus with 28 samples.

Results

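SCC1 is an established human head and neck squamous carcinoma line, and the study used it in separate experiments that each carried their own unperturbed baseline. The comparison here sets SCC1 Vehicle cells, the baseline of the iR4 experiment, against SCC1 Ctrl Vehicle cells, the baseline of the REXO4 knockout experiment. The 6 libraries were chosen by their labels alone, 3 for each baseline, out of 24 SCC1 libraries and 28 libraries in the whole series (the other 4 are mouse tumors, not analysed here). The iR4 experiment holds 9 libraries, labelled Vehicle, iR4 and H151_iR4. The knockout experiment is taken here to hold 15, labelled KO_2 H151, KO_2 BX_795, R4KO_1 Vehicle, R4KO_2 Vehicle and Ctrl Vehicle. Both groupings are read from the group names, and no label states which groups were run together. R4KO marks loss of the RNA exonuclease REXO4; H-151 blocks STING, an adaptor of innate immune DNA sensing, by covalent binding, and BX-795 inhibits TBK1, a kinase below STING, together with other kinases. The labels do not say what iR4 is, what the vehicles were, whether the Ctrl cells carry a control guide or are a clone, when each experiment was run, or what separates 1 replicate from the next. Neither baseline is labelled as losing REXO4 or receiving an inhibitor. Experiment, vehicle and cell derivation differ together between the baselines and cannot be told apart, and p-values may measure only technical spread between libraries.

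Immediate early genes encode transcription factors that switch on quickly after growth factors, serum or stress and switch off again, the sterol program follows the supply of cholesterol, and clock genes cycle with time since synchronisation. Interferon-stimulated genes keep a low constitutive level in most epithelial cells, set by tonic interferon and STAT signalling, and they are also the genes most used to read out STING activity.

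Polyadenylated RNA was sequenced, and the total count per library ran from 19426470 to 21653191 in Vehicle and from 17727904 to 18029973 in Ctrl Vehicle. All 15 squamous epithelial markers were detected in both baselines. Their summed level was 4922 to 5079 CPM (counts per 1e6 reads of the TMM-scaled library) in Vehicle and 6340 to 6779 CPM in Ctrl Vehicle. PKP1 was detected only at 0.15 CPM in Vehicle and 0.37 CPM in Ctrl Vehicle. Markers of other cell types summed to low levels in both, given with Vehicle first. The sums were 22.9 to 25.9 and 23.6 to 24.5 CPM for 10 fibroblast markers, and 13.8 to 16.5 and 13.5 to 16.6 CPM for 12 leukocyte markers. Single genes made up most of them: COL1A1 averaged 22.3 and 21.4 CPM among the fibroblast markers, and CSF1R 14.6 and 14.1 CPM among the leukocyte markers. The fibroblast list had 2 markers at 0 in each baseline and the leukocyte list 3. In bulk RNA, fewer cells of a type and less RNA per cell cannot be told apart. The 13 mRNAs of the mitochondrial genome had 0 counts in every SCC1 library and carry no information. The chi-square of counts over its degrees of freedom was 1.96 to 4.51 in the 6 replicate pairs, above sampling noise, so no library was counted as a duplicate.

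REXO4, the gene targeted in the study (chr9:133406059-133418096, minus strand, hg38), stood at 92.1, 98.6 and 97.7 CPM in Vehicle, against 73.9, 77.1 and 70.7 CPM in Ctrl Vehicle. The groups did not overlap, and every Vehicle library was the higher (log2 fold change 0.38, SE 0.05, adjusted p = 7.16e-07; edgeR quasi-likelihood test with Benjamini-Hochberg adjustment over all genes, here and below). The remaining libraries of the iR4 experiment gave 92.7, 88.9 and 93.1 CPM where labelled H151_iR4 and 63.0, 58.1 and 63.2 CPM where labelled iR4. In the knockout experiment REXO4 averaged 17.9 CPM in KO_2 H151, 18.9 CPM in KO_2 BX_795, 9.39 CPM in R4KO_1 Vehicle and 6.30 CPM in R4KO_2 Vehicle. Both baselines stood far above the knockouts. The libraries labelled H151_iR4 stood near Vehicle (log2 fold change -0.07, adjusted p = 0.412).

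The baselines differed across much of the transcriptome, mostly by small amounts. Of 14585 genes tested, 7509 (51.5%) passed an adjusted p of 0.05, 3738 (25.6%) higher and 3771 (25.9%) lower in Vehicle. At 2-fold or more the counts were 240 higher (1.65%) and 395 lower (2.71%), 635 in all (4.35%). The median absolute log2 fold change was 0.22 and the 90th percentile 0.74. The median over all genes was -0.01, but the TMM scaling sets it near 0. The balance of rises and falls therefore cannot be read from it. That balance moved with the scaling: upper-quartile factors gave 3391 genes higher and 4106 lower. All 3 Vehicle libraries lay on 1 side of all 3 Ctrl Vehicle libraries in 57.7% of genes. No gene was expressed in 1 baseline and absent from the other by the rule used (at most 3 counts over a group against at least 1 CPM in every library of the other). The root mean square difference in log2 CPM between a Vehicle and a Ctrl Vehicle library was 0.50 to 0.54 over 9 pairs, against 0.28 to 0.29 within Vehicle and 0.30 to 0.31 within Ctrl Vehicle.

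Set beside the perturbations, the step between baselines was smaller than that of knockout or iR4. R4KO_1 and R4KO_2 differed from Ctrl Vehicle in 9440 (64.7%) and 9738 (66.8%) genes, with median absolute log2 fold changes of 0.31 and 0.33. The iR4 libraries differed from Vehicle in 10002 genes (68.6%, median 0.34) and the H151_iR4 libraries in 2147 (14.7%, median 0.10). These comparisons share the baseline libraries, so their counts are set side by side and nothing is read from their likeness.

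**Figure D1:**
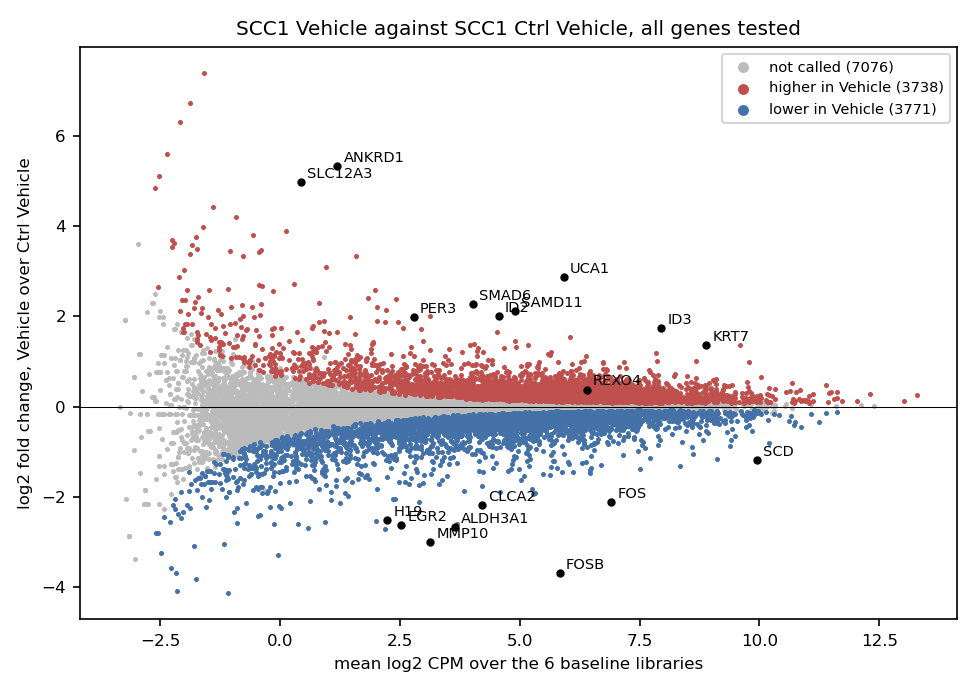
Log2 fold change of Vehicle over Ctrl Vehicle (vertical) against mean log2 CPM over the 6 baseline libraries (horizontal) for the 14585 genes tested; red genes were called higher and blue genes lower. Most called genes lie close to 0, while UCA1 at 2.86 and FOSB at -3.68 stand far out at a high level.

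Among well-expressed genes (mean log2 CPM of at least 2, groups not overlapping) the steepest rise was in UCA1, a long noncoding RNA first described in urothelial carcinoma. The gene lies at chr19:15828206-15836326 (plus strand, hg38). UCA1 reached 165, 162 and 159.9 CPM in Vehicle, against 22.9, 23.3 and 20.7 CPM in Ctrl Vehicle (log2 fold change 2.86, SE 0.13, adjusted p = 3.85e-17). UCA1 was higher in all 9 libraries of the iR4 experiment than in all 15 of the knockout experiment, as were 1.54% of all genes. The gene was picked for no overlap between the baselines, which are part of this split. SEMA5A, an axon guidance ligand, stood at 10.9, 8.37 and 9.33 CPM in Vehicle and 2.17, 2.50 and 1.81 CPM in Ctrl Vehicle (2.14). PGBD5, a domesticated transposase, averaged 8.54 ± 0.99 CPM in Vehicle and 1.83 ± 0.22 CPM in Ctrl Vehicle (SD, n = 3 each; log2 fold change 2.22). SAMD11 rose by a log2 fold change of 2.11, but it overlaps NOC2L on the other strand (458 CPM in Vehicle and 316 CPM in Ctrl Vehicle), and no source used here gives the strand setting of the counting. DIO2, which activates thyroid hormone, averaged 7.58 CPM in Vehicle and 2.02 CPM in Ctrl Vehicle (1.90).

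A few genes with larger ratios lay at lower levels and are named here after their values were seen. ANKRD1, a mechanosensitive YAP-TEAD target, had 258, 232 and 253 counts in Vehicle, against 4, 6 and 6 counts in Ctrl Vehicle (log2 fold change 5.33, SE 0.30, adjusted p = 6.16e-15). SLC12A3, a sodium chloride cotransporter, had 121, 141 and 140 counts in Vehicle, against 5, 6 and 0 in Ctrl Vehicle (4.97). PXDN, a matrix peroxidase, had 18, 15 and 23 counts in Vehicle and 2 counts in all 3 Ctrl Vehicle libraries together. For these the Ctrl Vehicle value rests on very few reads, so the size of the ratio is imprecise.

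The falls were led by FOSB, a partner of JUN in the transcription factor AP-1 (chr19:45467995-45475179, plus strand, hg38). FOSB stood at 21.3, 17.6 and 10.1 CPM in Vehicle, against 194, 228 and 203 CPM in Ctrl Vehicle (log2 fold change -3.68, SE 0.19, adjusted p = 1.05e-15). It overlaps ERCC1 on the other strand, which had 30.2 CPM in Vehicle and 37.1 CPM in Ctrl Vehicle. MMP10, a secreted matrix metalloproteinase, stood at 3.45, 2.49 and 3.26 CPM in Vehicle and 24.6, 22.2 and 27.2 CPM in Ctrl Vehicle (-3.01). CLCA2, a p63-regulated surface protein of stratified epithelium, stood at 8.15, 8.73 and 9.14 CPM in Vehicle and 39.2, 36.1 and 43.2 CPM in Ctrl Vehicle (-2.18). LINC01629, a noncoding RNA, averaged 1.62 CPM in Vehicle and 9.42 CPM in Ctrl Vehicle (-2.54). The naming rule admitted only genes without overlap, so in each of these all 3 Vehicle libraries lay below all 3 Ctrl Vehicle libraries.

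H19, the imprinted noncoding RNA, was the exception among the leading falls because 1 library set its value. It had 3.01, 2.39 and 2.72 CPM in Vehicle, against 3.93, 3.08 and 39.3 CPM in Ctrl Vehicle (log2 fold change -2.51, adjusted p = 0.00307). Without Ctrl Vehicle replicate 3 the log2 fold change was -0.37 and the call was lost.

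The immediate early program was lower in Vehicle. Of 29 tested immediate early genes 21 fell and 2 rose, with a median log2 fold change of -0.76 beside -0.01 over all genes. Among all genes 25.9% were lower and 25.6% higher. FOS, another partner of JUN in AP-1, stood at 67.3, 64.0 and 44.1 CPM in Vehicle, against 251, 283 and 226 CPM in Ctrl Vehicle (-2.12, SE 0.14, adjusted p = 2.00e-13). EGR1, the zinc finger factor most often used as a readout of MAPK and SRF signalling, stood at 237, 228 and 159 CPM in Vehicle and 471, 522 and 552 CPM in Ctrl Vehicle (-1.31). EGR2 averaged 2.36 CPM in Vehicle and 14.5 CPM in Ctrl Vehicle (-2.63), and EGR3 2.51 CPM in Vehicle and 10.4 CPM in Ctrl Vehicle (-2.05). Vehicle replicate 3 was the lowest of its group in FOSB, FOS, EGR1, EGR2 and EGR3, but no Vehicle library reached any Ctrl Vehicle library in these genes.

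NR4A1, an orphan nuclear receptor of the same program, stood at 25.1, 24.6 and 12.9 CPM in Vehicle and 61.9, 65.3 and 94.2 CPM in Ctrl Vehicle (-1.83). Its antisense partner NR4A1AS fell as well (-2.70), and without strand information reads of this pair cannot be told apart. JUN and JUNB fell less, by 0.77 and 0.65 on the log2 scale. MYC went the other way, with 469, 469 and 441 CPM in Vehicle and 342, 365 and 365 CPM in Ctrl Vehicle (0.36, adjusted p = 1.46e-07). SRF, the serum response factor itself, rose by 0.14. So the fall lay in the AP-1, EGR and NR4A genes and not in every member.

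The EGR1 promoter is shown because it carries the motif through which SRF acts, the CArG box, given in capitals. The window lies at chr5:138465344-138465435 on the plus strand of GRCh38.p14 (RefSeq promoter table, 250 bases before to 50 after each start).
EGR1: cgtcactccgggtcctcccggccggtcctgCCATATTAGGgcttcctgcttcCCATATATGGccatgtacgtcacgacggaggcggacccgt
EGR1 holds 2 such boxes in this window. It was the only one of the 16 immediate early promoters lower in Vehicle with a sequence that held the motif (6.25%), against 1.06% of 11333 promoters of tested genes, and 2 of 21 promoters of all tested members held it. The cAMP response element, TGACGTCA, stood in 1 of the same 16 promoters (6.25%), against 3.20% of promoters of tested genes.

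Feedback genes and growth factor ligands of the MAPK pathway mostly fell as well. Of 24 tested MAPK feedback genes 13 fell and 6 rose (median -0.47), where 25.9% of all genes were lower and 25.6% higher. PHLDA1 averaged 18.4 ± 0.22 CPM in Vehicle and 57.1 ± 1.11 CPM in Ctrl Vehicle (SD, n = 3 each; -1.63). The phosphatases DUSP1 and DUSP6 fell by 1.20 and 1.3 on the log2 scale, and the EGFR ligand AREG by 1.31. DUSP2, a nuclear phosphatase, rose: it had 73.8, 75.5 and 66.7 CPM in Vehicle and 29.7, 36.6 and 30.3 CPM in Ctrl Vehicle (1.16). The epithelial alarmins IL1A and IL1B fell. IL1A stood at 22.3, 18.8 and 20.1 CPM in Vehicle, against 85.0, 74.2 and 72.4 CPM in Ctrl Vehicle (-1.92, adjusted p = 3.13e-09), and IL1B averaged 4.42 CPM in Vehicle and 11.4 CPM in Ctrl Vehicle (-1.38). Of 20 tested cytokine and chemokine genes 6 fell and none rose, where 25.9% of all genes were lower. The remaining 14, IL6 and CXCL8 among them with means under 1 CPM in both baselines, did not pass.

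FOSB, FOS and EGR2, picked from the immediate early list after their values were seen, were lower in all 9 libraries of the iR4 experiment than in all 15 libraries of the knockout experiment, as were 0.939% of all genes. The list as a whole did not keep one direction across the experiments. In iR4 over R4KO_2 Vehicle 15 of its 29 genes were higher and 10 lower (median 0.24), where 30.8% of all genes were higher and 29.3% lower. In H151_iR4 over KO_2 H151 1 was higher and 20 were lower (median -0.73), where 21.4% of all genes were higher and 20.3% lower. FOSB averaged 15.6 CPM in H151_iR4, 11.3 CPM in iR4 and 16.3 CPM in Vehicle. In the knockout experiment FOSB averaged 137 CPM in KO_2 H151, 110.2 CPM in KO_2 BX_795, 148 CPM in R4KO_1 Vehicle, 114 CPM in R4KO_2 Vehicle and 208 CPM in Ctrl Vehicle. IL1A did not follow that split, since iR4 averaged 146 CPM, above both baselines.

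**Figure D2:**
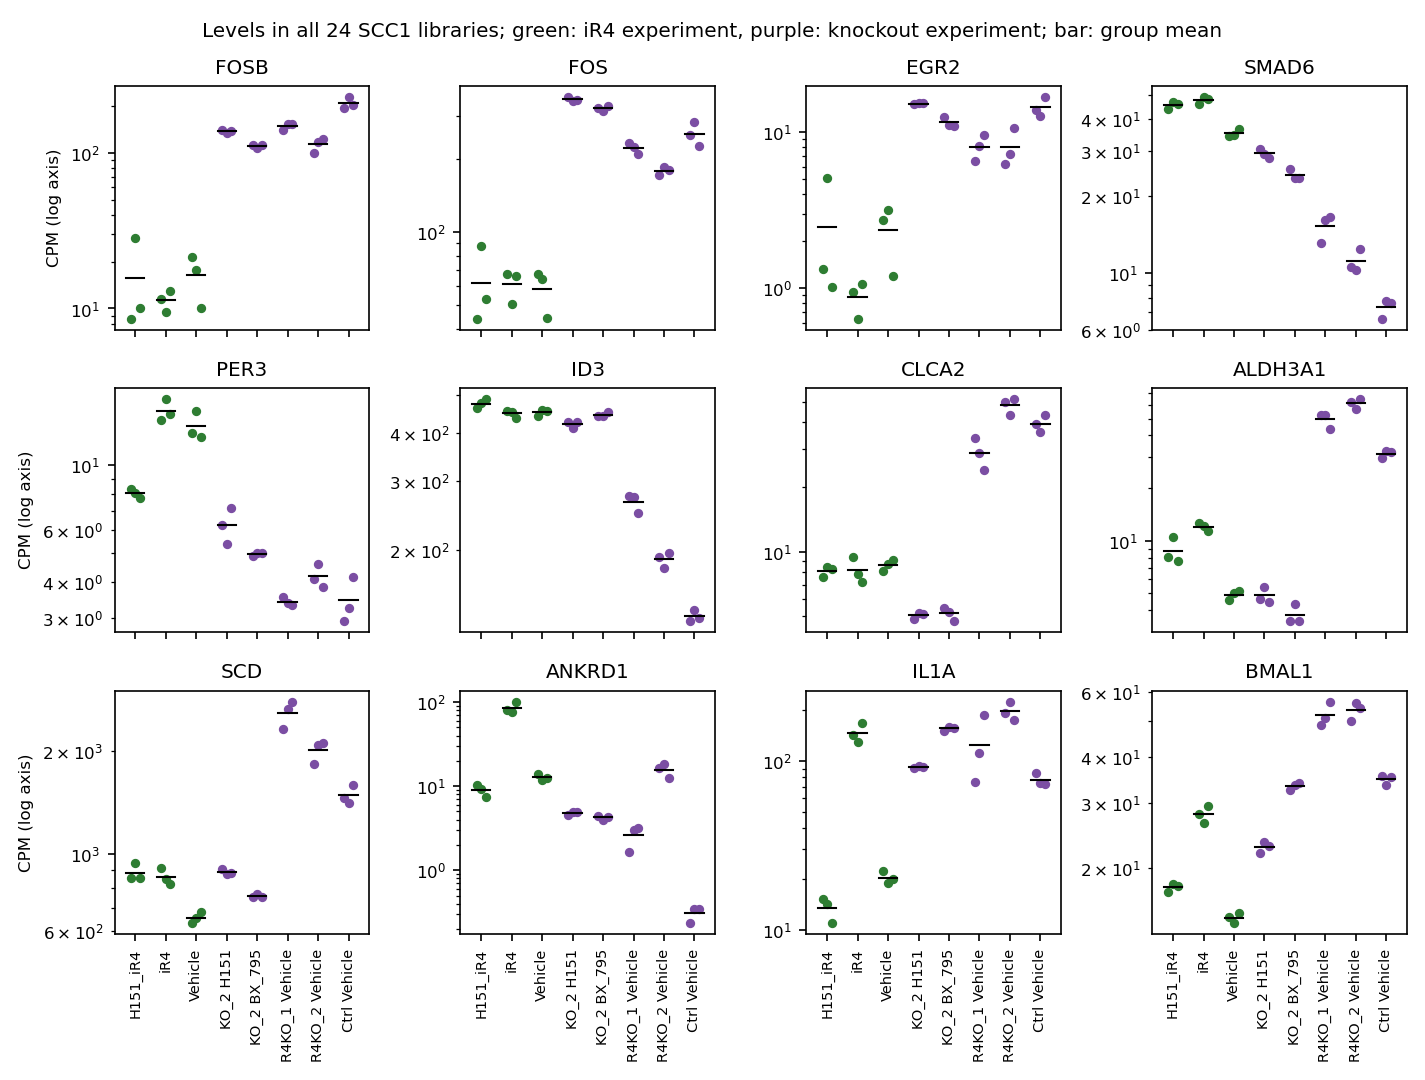
CPM on a log axis for 12 genes in all 24 SCC1 libraries, 1 point a library and a bar at the group mean; the iR4 experiment is green and the knockout experiment purple. FOSB, FOS and EGR2 divide by experiment, whereas ID3, CLCA2, ALDH3A1 and SCD set the 3 vehicle groups of the knockout experiment apart from the other 5 groups.

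Interferon-stimulated genes were lower in Vehicle. Of 56 tested members 42 fell, 1 rose and 13 did not pass, with a median log2 fold change of -0.46. Among all genes 25.9% were lower and 25.6% higher. IFI44L stood at 2.95, 3.6 and 4.0 CPM in Vehicle and 11.5, 10.9 and 12.2 CPM in Ctrl Vehicle (-1.71, SE 0.11, adjusted p = 5.27e-14). UBE2L6, the conjugating enzyme for ISG15, averaged 19.3 ± 0.085 CPM in Vehicle and 43.6 ± 2.14 CPM in Ctrl Vehicle (SD, n = 3 each; -1.18). OAS2, a sensor of double-stranded RNA, averaged 0.99 CPM in Vehicle and 4.11 CPM in Ctrl Vehicle (-2.06), and the GTPase GBP1 3.79 CPM in Vehicle and 11.3 CPM in Ctrl Vehicle (-1.58). The rise was in ISG15 itself, with 86.8, 93.7 and 89.3 CPM in Vehicle and 63.5, 68.8 and 62.6 CPM in Ctrl Vehicle (0.47, adjusted p = 0.000281). IFIT1 and MX1, often used to mark acute interferon responses, did not pass: IFIT1 averaged 46.7 CPM in Vehicle and 51.1 CPM in Ctrl Vehicle (-0.13, adjusted p = 0.283), and MX1 2.74 CPM in Vehicle and 2.61 CPM in Ctrl Vehicle (0.07, adjusted p = 0.791).

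Antigen presentation by MHC class I moved the same way: 19 of 21 tested genes fell and none rose (median -0.54). The share lower among all genes was 25.9%. B2M, the invariant chain, stood at 760.1, 744 and 773 CPM in Vehicle, against 1116, 1059 and 1149.8 CPM in Ctrl Vehicle (-0.55, SE 0.04, adjusted p = 2.14e-12). HLA-B, a heavy chain, fell by 0.89 on the log2 scale. PSMB9, an immunoproteasome subunit, averaged 11.4 CPM in Vehicle and 31.2 CPM in Ctrl Vehicle (-1.45). The peptide trimming enzyme ERAP1 fell by 0.82, though it overlaps CAST on the other strand (201 CPM in Vehicle and 193 CPM in Ctrl Vehicle). Reads of HLA genes can be assigned to near-identical paralogs, so the individual HLA values are uncertain.

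The sensing pathway upstream did not move as a block. Among 13 tested cGAS-STING and RNA-DNA hybrid nuclease genes 2 rose and 5 fell (median -0.07), where 25.6% of all genes were higher and 25.9% lower. STING1 averaged 28.1 CPM in Vehicle and 36.0 CPM in Ctrl Vehicle (-0.36, adjusted p = 0.000408), and CGAS 59.9 CPM in Vehicle and 61.2 CPM in Ctrl Vehicle (-0.03). TLR3, the endosomal sensor of double-stranded RNA, averaged 10.6 CPM in Vehicle and 20.9 CPM in Ctrl Vehicle (-0.97). RNASEH1, which removes RNA from RNA-DNA hybrids, rose by 0.45.

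Promoters of the interferon-stimulated genes that fell are shown because they share a motif that the comparison did not use. The interferon-stimulated response element was searched as GAAANNGAAA on both strands of the RefSeq promoter windows, and each site is in capitals. The windows, all on GRCh38.p14, lie at chr2:151289792-151289861 (minus strand) for NMI, chr3:122680780-122680849 (plus) for PARP14, chr3:122564302-122564371 (plus) for DTX3L, chr1:89065296-89065365 (minus) for GBP1 and chr1:78649741-78649810 (plus) for IFI44.
NMI: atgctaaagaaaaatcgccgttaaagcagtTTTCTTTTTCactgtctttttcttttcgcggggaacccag
PARP14: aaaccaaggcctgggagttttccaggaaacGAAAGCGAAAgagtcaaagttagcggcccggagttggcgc
DTX3L: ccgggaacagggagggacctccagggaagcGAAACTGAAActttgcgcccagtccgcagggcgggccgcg
GBP1: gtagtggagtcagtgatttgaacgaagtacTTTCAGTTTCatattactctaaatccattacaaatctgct
IFI44: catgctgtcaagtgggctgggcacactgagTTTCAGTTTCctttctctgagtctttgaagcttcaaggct
The motif stood in 24 of the 33 promoters found for interferon-stimulated genes lower in Vehicle (72.7%) and in 31 of the 44 found for all tested members (70.5%). It stood in 318 of 11333 promoters of tested genes (2.81%) and in 3.65% of all 27305 promoters of the table. The share among falling members was close to that among all members.

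NMI, a STAT partner, stood at 20.7, 20.8 and 19.8 CPM in Vehicle and 41.9, 43.1 and 47.9 CPM in Ctrl Vehicle (-1.12). PARP14, an ADP-ribosyltransferase, fell by 0.90 and its neighbour in function DTX3L, a ubiquitin ligase, by 0.72; DTX3L overlaps PARP9 on the other strand, which fell by 0.85. IFI44 averaged 36.2 CPM in Vehicle and 73.0 CPM in Ctrl Vehicle (-1.01).

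For scale, the same lists are given against each baseline in the perturbed cells. The median log2 fold change of the interferon-stimulated list was 0.95 in R4KO_1 and 1.13 in R4KO_2 over Ctrl Vehicle, 0.82 in iR4 over Vehicle and -0.07 in H151_iR4 over Vehicle, beside -0.46 for Vehicle over Ctrl Vehicle. IFI44 averaged 16 CPM in H151_iR4, 77.0 CPM in iR4 and 36.2 CPM in Vehicle. In the knockout experiment it averaged 30 CPM in KO_2 H151, 24.8 CPM in KO_2 BX_795, 154 CPM in R4KO_1 Vehicle, 163 CPM in R4KO_2 Vehicle and 73.0 CPM in Ctrl Vehicle. The iR4 mean of IFI44 lay close to the Ctrl Vehicle mean, although it was higher than its own baseline.

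Genes of cholesterol synthesis and uptake were lower in Vehicle almost throughout, where 25.9% of all genes were lower. Of 25 tested members 23 fell and none rose, with a median log2 fold change of -0.73. These genes are switched on by the sterol-sensing factor SREBP2 when membrane cholesterol is short. MSMO1, a sterol demethylase, stood at 29.9, 29.6 and 27.6 CPM in Vehicle, against 82.8, 74.2 and 93.4 CPM in Ctrl Vehicle (-1.52, SE 0.13, adjusted p = 4.32e-11). INSIG1, which holds the SREBP complex in the endoplasmic reticulum, averaged 53.4 CPM in Vehicle and 149 CPM in Ctrl Vehicle (-1.48). SREBF2, the gene for SREBP2, stood at 125, 132 and 133 CPM in Vehicle and 212, 227 and 207 CPM in Ctrl Vehicle (-0.73).

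Fatty acid genes followed with 12 of 17 lower and 1 higher (median -0.43), beside 25.9% of all genes lower and 25.6% higher. SCD, the stearoyl desaturase and 1 of the most abundant mRNAs in these cells, had 630.4, 653 and 681 CPM in Vehicle and 1463, 1411 and 1587 CPM in Ctrl Vehicle (-1.18, adjusted p = 1.53e-16). FADS1, another desaturase, fell by 0.77. The sterol regulatory element, searched as TCACNCCAC on both strands, stood in the SREBF2 promoter window, chr22:41832942-41833010 on the plus strand of GRCh38.p14, shown because SREBF2 was the only falling sterol gene of 17 with a promoter found that held it (5.88%, against 1.16% of promoters of tested genes).
SREBF2: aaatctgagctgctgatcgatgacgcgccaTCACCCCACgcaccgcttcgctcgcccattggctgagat
Both SCD and SREBF2 were higher in all 9 vehicle libraries of the knockout experiment than in the other 15 SCC1 libraries. The same held for 3.44% of all genes.

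Targets of BMP signalling through SMAD1 and SMAD5 were higher in Vehicle; this list was added after the leading genes had been seen, so its count is only a description. Of 15 tested members 12 rose and 1 fell (median 1.01), where 25.6% of all genes were higher and 25.9% lower. The ID proteins, which block basic helix-loop-helix factors, moved together. ID3 stood at 442, 457 and 456 CPM in Vehicle, against 131, 140.2 and 134 CPM in Ctrl Vehicle (1.74, SE 0.04, adjusted p = 3.28e-24). ID2 stood at 45.6, 45.0 and 51.5 CPM in Vehicle and 12.3, 10.9 and 12 CPM in Ctrl Vehicle (2.01), and ID1 averaged 579 CPM in Vehicle and 288 CPM in Ctrl Vehicle (1.01). The inhibitory SMADs rose with them: SMAD6 had 34.4, 34.6 and 36.8 CPM in Vehicle and 6.63, 7.78 and 7.61 CPM in Ctrl Vehicle (2.26), and SMAD7 rose by 0.90.

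The transcription factors GATA2 and DLX2 were also among the rises. GATA2 averaged 112 ± 0.44 CPM in Vehicle and 38.5 ± 2.08 CPM in Ctrl Vehicle (SD, n = 3 each; 1.55), and DLX2 17.4 ± 0.78 CPM in Vehicle and 4.30 ± 0.75 CPM in Ctrl Vehicle (2.01). HES1, a Notch target that also answers to BMP, was the member that fell (-1.07). SMAD6 and DLX2 were higher in all 9 libraries of the iR4 experiment than in all 15 of the knockout experiment. The same held for 1.54% of all genes. ID3 was not divided by experiment: KO_2 H151 and KO_2 BX_795 averaged 421 and 446 CPM, near Vehicle, while R4KO_1 and R4KO_2 Vehicle averaged 266 and 189 CPM.

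Core clock genes differed in opposite directions within the loop, in a list also added after values were seen. The clock runs on CLOCK and BMAL1, which switch on the PER and CRY genes whose products then repress them. Of 17 tested clock genes 9 rose and 6 fell, where 25.6% of all genes were higher and 25.9% lower. PER3 stood at 12.9, 15.4 and 12.5 CPM in Vehicle and 2.93, 3.25 and 4.15 CPM in Ctrl Vehicle (1.98, SE 0.12, adjusted p = 3.82e-14). PER2 rose by 1.73, PER1 by 1.31, CRY1 by 1.20 and CRY2 by 1.04 on the log2 scale, and the output factors DBP, TEF and HLF by 1.12, 1.03 and 1.32. BMAL1 stood at 14.7, 14.1 and 15 CPM in Vehicle and 35.5, 33.6 and 35.2 CPM in Ctrl Vehicle (-1.25, adjusted p = 1.12e-15). CLOCK fell by 0.24 and BHLHE40, a repressor of the loop, by 1.21. NR1D1 fell by 0.33 and NR1D2 rose by 0.22, so the REV-ERB genes that repress BMAL1 did not share a direction. No library has a harvest time in the labels.

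PER genes did not return to 1 level across the other groups. PER2 averaged 7.11 CPM in H151_iR4, 16.2 CPM in iR4 and 10.6 CPM in Vehicle, and 8.70 CPM in KO_2 H151, 9.22 CPM in KO_2 BX_795, 2.98 CPM in R4KO_1 Vehicle, 3.52 CPM in R4KO_2 Vehicle and 3.17 CPM in Ctrl Vehicle. PER1 and PER2 were lower in all 9 vehicle libraries of the knockout experiment than in the other 15 libraries, as were 3.18% of all genes.

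Keratins of simple epithelium and hair were higher in Vehicle, and basal keratinocyte genes were mostly lower. Of 9 simple and hair keratins tested 7 rose and none fell (median 1.12), where 25.6% of all genes were higher. KRT7 stood at 775, 768 and 742 CPM in Vehicle, against 319, 303 and 267 CPM in Ctrl Vehicle (1.36, SE 0.06, adjusted p = 6.25e-18). KRT80 averaged 347 CPM in Vehicle and 152 CPM in Ctrl Vehicle (1.19), and the simple epithelial pair KRT8 and KRT18 rose by 0.46 and 0.53. KRT81, a hair keratin, had 153, 198 and 175 counts in Vehicle and 13, 13 and 20 counts in Ctrl Vehicle (3.32); hair keratins are near-identical copies, so the split of reads among KRT81, KRT83 and KRT86 is uncertain.

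Of 24 basal keratinocyte genes 16 fell and 2 rose (median -0.35). For this and the next lists, 25.9% of all genes were lower and 25.6% higher. TP63, the master factor of stratified epithelium, stood at 180.3, 175 and 171 CPM in Vehicle and 326, 315 and 314 CPM in Ctrl Vehicle (-0.86, SE 0.06, adjusted p = 6.78e-13). KRT17 averaged 371 CPM in Vehicle and 832 CPM in Ctrl Vehicle (-1.16), and KRT15 20.0 CPM in Vehicle and 58.3 CPM in Ctrl Vehicle (-1.54). KRT5, the defining basal keratin, rose slightly by 0.17. Squamous differentiation genes were split, with 5 higher and 12 lower of 28 tested (median -0.17); SERPINB13, a protease inhibitor of squamous cells, averaged 16.3 CPM in Vehicle and 44.0 CPM in Ctrl Vehicle (-1.43). S100 genes fell in 8 of 11 (median -0.36), S100A2 among them (-0.80). The mesenchymal and matrix list did not lean, with 11 higher and 11 lower of 37 tested; FN1, fibronectin, rose by 1.14.

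**Figure D3:**
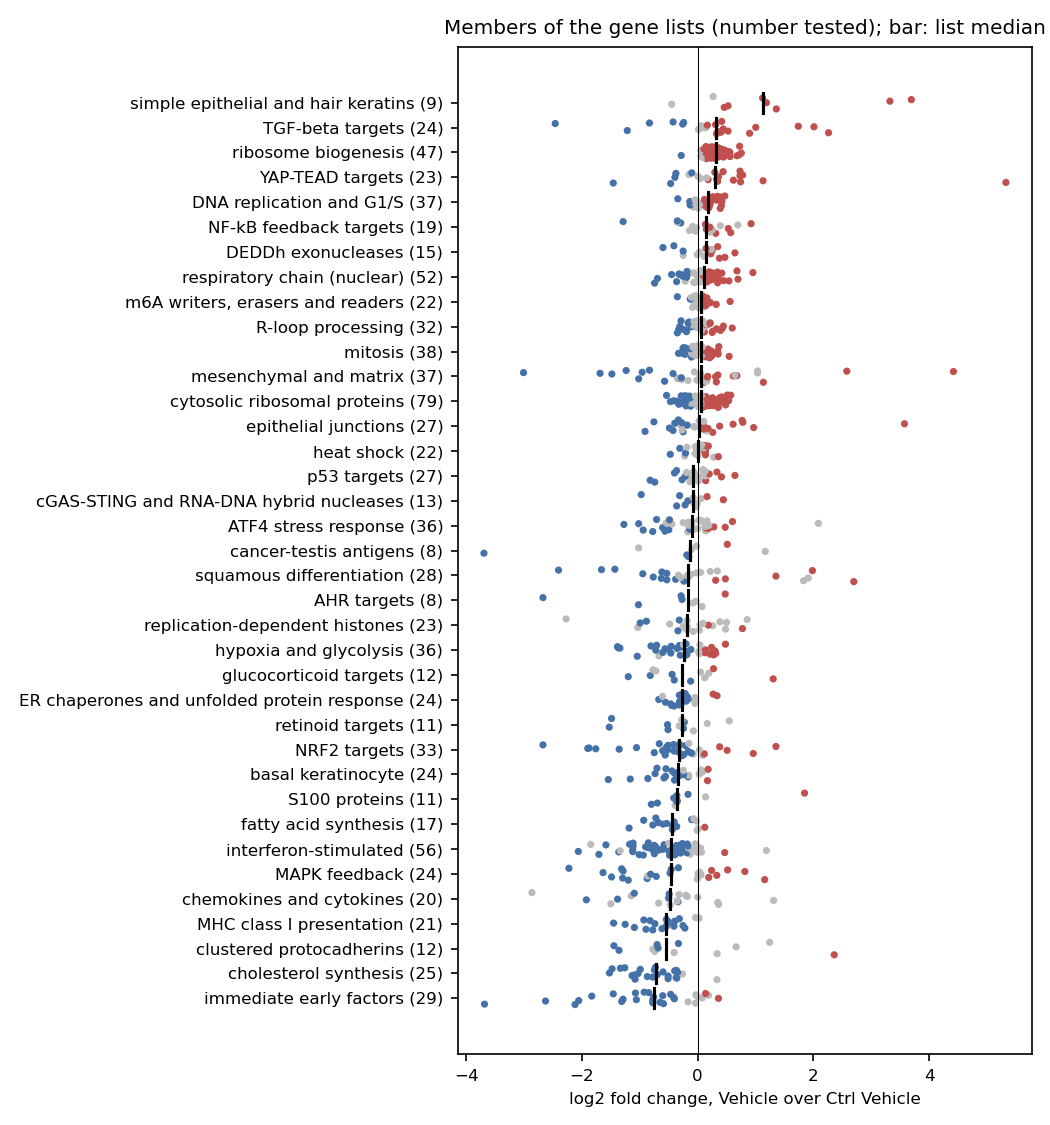
Log2 fold change of Vehicle over Ctrl Vehicle for every tested member of the gene lists with at least 8 tested members. Marker lists and lists added after values were seen are left out. Each list has 1 row, with the number tested in brackets. Red and blue points were called, grey points were not, and a bar marks the list median. The rows run from simple epithelial and hair keratins at 1.12 to immediate early factors at -0.76.

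Redox genes under NRF2 were mostly lower in Vehicle, with 24 of 33 lower and 5 higher (median -0.32). Among all genes 25.9% were lower and 25.6% higher. Enzymes that oxidise or reduce aldehydes and ketones were among the falls. ALDH3A1, an aldehyde dehydrogenase, stood at 4.6, 5.02 and 5.14 CPM in Vehicle, against 29.6, 32.4 and 32.3 CPM in Ctrl Vehicle (-2.67, SE 0.11, adjusted p = 2.93e-18). The reductase AKR1C1 averaged 12.5 CPM in Vehicle and 46.6 CPM in Ctrl Vehicle (-1.90), with the caution that AKR1C1 and AKR1C2 are near-identical, and AKR1B10 10.1 CPM in Vehicle and 34.1 CPM in Ctrl Vehicle (-1.76). Iron storage went the other way: FTH1, ferritin heavy chain, stood at 1217, 1249 and 1262 CPM in Vehicle and 551, 435 and 472 CPM in Ctrl Vehicle (1.36, adjusted p = 6.08e-12), and FTL rose by 0.38.

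Complement genes, a list added after values were seen, fell in 8 of 14 and rose in 1 (median -0.53). The share lower among all genes was 25.9%, and the share higher 25.6%. CFI, a protease that inactivates C3b and C4b, averaged 3.53 ± 0.42 CPM in Vehicle and 15.3 ± 2.13 CPM in Ctrl Vehicle (SD, n = 3 each; log2 fold change -2.11, SE 0.12, adjusted p = 8.49e-15). The initiating proteases C1R and C1S fell by 0.96 and 1.02.

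Placental glycoprotein genes of chromosome 19 were higher in Vehicle, 5 of 7 tested, where 25.6% of all genes were higher. This list too was added after values were seen. CGB8, a chorionic gonadotropin beta gene, stood at 11.9, 12.8 and 11.5 CPM in Vehicle and 3.05, 2.2 and 1.7 CPM in Ctrl Vehicle (2.38, adjusted p = 2.30e-11). PSG4, a pregnancy-specific glycoprotein, averaged 7.99 CPM in Vehicle and 1.5 CPM in Ctrl Vehicle (2.41). Both belong to clusters of near-identical copies, so which copy gave the reads is uncertain.

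Ribosome biogenesis and DNA replication genes were mostly higher in Vehicle, by small amounts, where 25.6% of all genes were higher. Ribosome biogenesis genes rose in 43 of 47 and fell in 1 (median 0.31). EBNA1BP2, a factor for the large ribosomal subunit, stood at 394, 387 and 385 CPM in Vehicle and 237, 236 and 231 CPM in Ctrl Vehicle (0.73, SE 0.04, adjusted p = 1.16e-15). NHP2, a snoRNP protein, rose by 0.68. DNA replication genes rose in 25 of 37 and fell in 4 (median 0.18): MCM2, a subunit of the replicative helicase, averaged 538 CPM in Vehicle and 409.9 CPM in Ctrl Vehicle (0.39). Mitotic genes leaned less, with 15 higher and 9 lower of 38 (median 0.06), and AURKA and UBE2C, both on chromosome 20, rose by 0.55 and 0.37. Cytosolic ribosomal proteins had 34 higher and 22 lower of 79 (median 0.05), and nuclear respiratory chain genes 27 higher and 11 lower of 52 (median 0.11).

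Hypoxia and glycolysis genes did not move as 1 block. Of 36 tested, 21 fell and 9 rose (median -0.23), where 25.9% of all genes were lower and 25.6% higher. SLC2A1, the glucose transporter GLUT1, stood at 257, 276 and 284 CPM in Vehicle and 553, 569 and 560.2 CPM in Ctrl Vehicle (-1.04, adjusted p = 1.21e-15). The HIF targets NDRG1 and EGLN3 fell by 1.37 and 1.38, whereas the glycolytic enzyme GAPDH rose by 0.28. Endoplasmic reticulum chaperones fell in 18 of 24 and rose in 2 (median -0.27), with MANF at -0.56.

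Lists around RNA-DNA hybrids and RNA modification had medians near that of all genes. For the counts that follow, 25.6% of all genes were higher and 25.9% lower. Of 32 R-loop processing genes 12 rose and 10 fell (median 0.06), and of 22 m6A writers, erasers and readers 10 rose and 2 fell (median 0.06). YTHDF1, an m6A reader on chromosome 20, rose (0.56, adjusted p = 1.85e-13). Among 15 DEDDh exonucleases, the family of REXO4, 7 rose and 3 fell (median 0.15), with REXO1 at 0.47 and PARN at 0.35. YAP-TEAD targets had 13 higher and 5 lower of 23 (median 0.30); AMOTL2 rose by 1.13 while CCN2, another classic target, fell by 1.46. TGF-beta targets had 14 higher and 6 lower of 24 (median 0.32). Lists with medians between -0.10 and 0.10 included p53 targets (5 higher and 6 lower of 27), heat shock genes (7 and 3 of 22) and epithelial junction genes (10 and 9 of 27).

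Whether the step between baselines recurs in other libraries was looked at in pairs of groups that share no library with it. Here perturbation and experiment differ together, and the low-count filter used the libraries of these pairs too, so the counts are a description. The iR4 libraries against R4KO_2 Vehicle gave 8763 called genes (60.1%). Of the 240 genes at least 2-fold higher between baselines 172 were higher and 4 lower in this pair (30.8% of all genes were higher), and of the 395 lower genes 277 were lower and 9 higher (29.3% of all genes were lower). Pearson's r of the log2 fold changes across 14585 genes was 0.65; genes are not independent replicates.

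In the H-151 pair fewer of these genes were called in the direction seen between baselines. H151_iR4 against KO_2 H151 gave 6082 called genes (41.7%). They were 3128 higher and 2954 lower, and 2424 higher and 3616 lower with upper-quartile library factors. Of the 240 genes 58 were higher and 49 lower (21.4% of all genes were higher), and of the 395 genes 111 were lower and 33 higher (20.3% of all genes were lower). Pearson's r was 0.14. The difference between the steps was tested directly: 5946 of 14585 genes (40.8%) differed between the baseline pair and the H-151 pair. Among the 635 genes at 2-fold or more between baselines 409 did. Those 635 were picked by the same baseline values that enter this test, so nothing is read from their share.

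Inhibitor-treated KO_2 cells were also set against R4KO_2 Vehicle, within the knockout experiment as grouped here. This comparison was chosen after values were seen. KO_2 H151 over R4KO_2 Vehicle gave 10681 called genes (73.2%), with 139 of the 240 genes higher and 34 lower (36.9% of all genes were higher), and 275 of the 395 lower and 39 higher (36.4% of all genes were lower). KO_2 BX_795 over R4KO_2 Vehicle gave 10758 called genes (73.8%), with 141 of the 240 higher (37.3% of all genes were higher) and 273 of the 395 lower (36.5% of all genes were lower). Pearson's r with the baseline log2 fold changes was 0.41 and 0.39. KO_2 H151 and KO_2 BX_795 share the R4KO_2 Vehicle libraries, so these are not independent of each other.

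**Figure D4:**
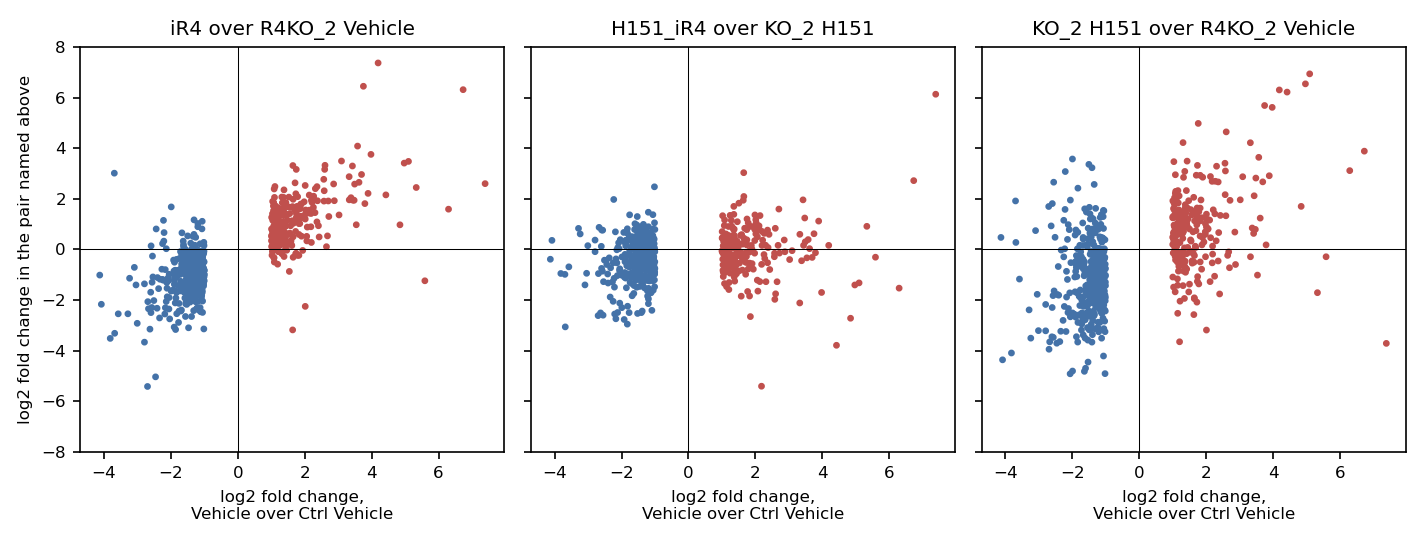
Log2 fold change of Vehicle over Ctrl Vehicle (horizontal) against that of 3 pairs sharing no library with it (vertical), for the 635 genes called at 2-fold or more between baselines; red genes were higher and blue genes lower in Vehicle. Most genes keep their side in iR4 over R4KO_2 Vehicle and in KO_2 H151 over R4KO_2 Vehicle, while in H151_iR4 over KO_2 H151 the red cloud is centred near 0.

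Some of the differing genes showed 1 or both of 2 patterns across all 24 libraries, and most showed neither. The first divides the experiments: 17 of the 240 higher genes and 14 of the 395 lower genes did not overlap between the 9 libraries of the iR4 experiment and the 15 of the knockout experiment (1.54% and 0.939% of all genes do so in each direction). The second sets the 9 vehicle libraries of the knockout experiment apart from the other 15, and held 48 of the 240 and 88 of the 395 (3.18% and 3.44% of all genes). SMAD6, DLX2 and PER3 were in both, higher each time. The baseline contrast is part of both splits, so the counts are read as a description only. ALDH3A1, CFI, CLCA2, MMP10, HLA-B, SCD and SREBF2 had the second pattern in the falling direction, and ID2, ID3, GATA2, KRT7, PER1 and PER2 in the rising one. CLCA2, for example, averaged 8.15 CPM in H151_iR4, 8.17 CPM in iR4 and 8.67 CPM in Vehicle, and 5.06 CPM in KO_2 H151, 5.15 CPM in KO_2 BX_795, 28.9 CPM in R4KO_1 Vehicle, 48.2 CPM in R4KO_2 Vehicle and 39.5 CPM in Ctrl Vehicle.

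Depth differed along the second split in part. The 9 vehicle libraries of the knockout experiment held 17470214 to 18029973 counts. The 6 inhibitor libraries of KO_2 held 21355791 to 27937636, and the 9 libraries of the iR4 experiment 16041474 to 21901518. The labels name no sequencing run or date, and the part of depth in these patterns was not tested.

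The differences were not spread evenly over the chromosomes. Genes on chromosome 20 were higher in Vehicle as a body: 211 of 401 rose and 36 fell (52.6% higher, against 25.6% of all genes), with a median log2 fold change of 0.21. Each of 8 successive windows of 50 tested genes along it had a positive median, from 0.11 to 0.28. Chromosome 15 had 209 of 479 genes higher and 45 lower (median 0.15), with all 9 windows positive. On the X chromosome 49 rose and 207 fell of 457 (45.3% lower, against 25.9% of all genes, median -0.16). All 9 of its windows were negative. Chromosomes 16 and 19 had medians of 0.16 each, with 44.1% and 43.7% of their genes higher. All 13 windows of chromosome 16 and all 19 of chromosome 19 were positive. With offsets for the GC decile of each gene the medians of chromosomes 16 and 19 were 0.12 and 0.10. Chromosomes 20 and 15 gave 0.21 and 0.17 with these offsets.

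Ctrl Vehicle was the lowest group for chromosome 15, and R4KO_2 Vehicle and Ctrl Vehicle were the low groups for chromosome 20. Relative to the mean of the 8 groups, the median deviation of chromosome 20 genes was 0.02 in H151_iR4, 0.03 in iR4 and 0.03 in Vehicle. In the knockout experiment it was 0.14 in KO_2 H151, 0.17 in KO_2 BX_795, 0.03 in R4KO_1 Vehicle, -0.23 in R4KO_2 Vehicle and -0.21 in Ctrl Vehicle. For chromosome 15 it was -0.16 in Ctrl Vehicle and between -0.01 and 0.06 in the other 7 groups. KO_2 H151 over R4KO_2 Vehicle, which carry the same KO_2 name, had a chromosome 20 median of 0.40, with all 8 windows positive. DNA copy number was not measured.

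**Figure D5:**
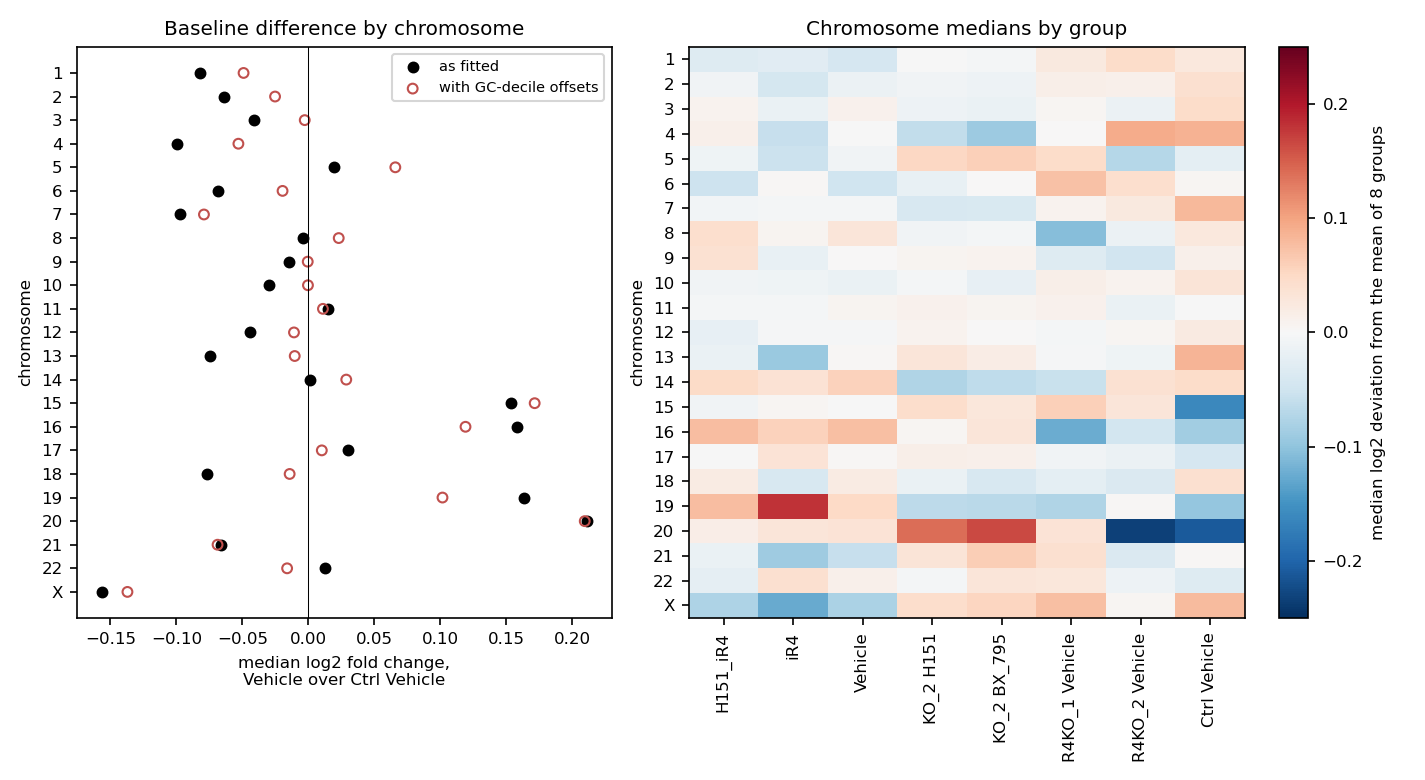
Left, median log2 fold change of Vehicle over Ctrl Vehicle for the tested genes of each chromosome, as fitted (filled) and with GC-decile offsets (open); right, the median log2 deviation of each group from the mean of the 8 groups. Chromosome 20 stands at 0.21 on the left, and on the right it is low in R4KO_2 Vehicle at -0.23 and in Ctrl Vehicle at -0.21.

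GC content went with the difference in a graded way. The median log2 fold change was -0.09, -0.07, -0.00, 0.04 and 0.13 in 5 equal bins of genes from low to high GC content (Spearman's rho 0.22 across 14585 genes, which share libraries and are not replicates). Gene length had a weaker relation (rho -0.09). Antisense and lincRNA genes had medians of -0.17 and -0.13, below -0.00 for protein-coding genes. The part of GC content in the differences of single genes was not tested beyond the offsets above.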

How the data were processed

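Raw read counts per Ensembl gene were deposited by the authors, 1 file a library, and are whole numbers with no normalization. The submitters' processing notes name HISAT2 2.2.1 and featureCounts 2.0.1 beside FastQC 0.11.9, DESeq2 1.42.0 and Trim Galore 0.6.4. They name the builds hg38 and mm10. No source used here gives the annotation or the strand setting. Per the labels' protocols, TRIzol RNA was treated with DNase I, selected with oligo(dT) and primed with random hexamers; the labels' molecule field names genomic DNA instead.

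All 24 SCC1 libraries were fitted together in edgeR 4.0.16 (R 4.3.3) with 8 group means, TMM factors, filterByExpr at a minimum count of 10 and the quasi-likelihood F test on 16 residual degrees of freedom. Benjamini-Hochberg adjustment ran over 14585 genes with a threshold of 0.05. CPM uses TMM-scaled library sizes. The test was checked on simulated data.

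Named genes were REXO4, the 10 largest rises and 10 largest falls (called, mean log2 CPM of at least 2, no overlap, with a symbol), and the 2 called members of lowest p in each list. Other genes named from the lists were chosen after their values were seen. Some genes that the rule names are not reported here. Members and lists were chosen with earlier results of these data known, and no list was tested as a set. Replicate numbers were not used to pair the samples in the main fit, and same-numbered deviations correlated at 0.0014, 0.023 and -0.0038. Gene coordinates are hg38, and promoter sequences come from RefSeq on GRCh38.p14. Alternatives covered the scaling, the low-count filter, DESeq2, a replicate block, the baseline libraries alone, GC offsets and leaving out each replicate. Total counts were 16041474 to 27937636 over the SCC1 libraries.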

Additional observations from a re-analysis of the deposited data

Results flagged for a closer look

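For 10 named genes the baseline difference and that of the H-151 pair (H151_iR4 over KO_2 H151) were both called and ran in opposite directions. The difference between these differences was itself tested (edgeR quasi-likelihood test, Benjamini-Hochberg adjustment over all genes). The genes were picked for these opposite directions in the same libraries, so a low p follows from the choice and is no added support. FN1, fibronectin, had a log2 fold change of 1.14 between baselines and -1.47 in the H-151 pair, a difference of 2.61 (adjusted p = 1.34e-20). ALDH3A1 had -2.67 between baselines and 0.87 in the pair, a difference of -3.54 (adjusted p = 2.76e-16). COL3A1, a fibrillar collagen, had -1.02 between baselines and 2.47 in the pair, a difference of -3.49 (adjusted p = 6.29e-07).

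The squamous and basal genes CLCA2, KRT15 and SERPINB13 were lower between baselines and higher in the pair, with differences of -2.88, -2.50 and -1.97. DIO2, DUSP2, AMOTL2 and PER1 were higher between baselines and lower in the pair, with differences of 2.47, 1.70, 1.82 and 1.86. Both groups of the pair carry the H-151 label, and their iR4 or KO_2 label and the experiment differ together and cannot be told apart.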

How the results depend on the processing

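Every count of called genes in the baseline comparison stayed within 1.5 times its value under each alternative run, and no named gene reversed. With the replicate block 3700 genes were higher and 3740 lower in Vehicle, with 240 and 391 at 2-fold or more. No count moved by 1.5 times with this block. What the replicate numbers share is not given in the labels. The 6 baseline libraries alone gave 3668 higher and 3711 lower. At 2-fold or more they gave 172 and 319 of 13456 genes tested, against 240 and 395 of 14585 in the main fit. The low-count filter of the main fit also passes genes through the other groups. DESeq2 gave 3620 higher and 3344 lower, and upper-quartile factors 3391 and 4106. GC offsets, added after the data were seen, gave 3963 and 3472. Leaving out 1 replicate gave 3353 to 3594 higher and 3305 to 3549 lower. H19 was called only with Ctrl Vehicle replicate 3. ESAM, an endothelial marker at low level, lost its call without a filter, with DESeq2 and in several omissions of 1 replicate (log2 fold change 0.39 to 0.62). The histone list's median of -0.18 was 0.01 without Vehicle replicate 1, and medians near 0 changed sign under some settings for heat shock, epithelial junctions and mesenchymal genes. List medians moved by more than the spread between replicates in 18 of 46 lists with GC offsets, 9 with upper-quartile factors and 11 without Ctrl Vehicle replicate 2. Genes under the filter of 10 counts are not covered.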

Other observations

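Several smaller gene groups are given as values, beside 25.6% of all genes higher and 25.9% lower in Vehicle. Clustered protocadherins, adhesion proteins of neurons, had 1 higher and 5 lower of 12 tested in Vehicle, although copies of the gamma cluster share exons and their reads cannot be told apart. Retinoid targets had no member higher and 6 lower of 11 (median log2 fold change -0.27), glucocorticoid targets 2 higher and 5 lower of 12 (-0.26), and AHR targets 1 higher and 4 lower of 8 (-0.17). NF-kB feedback targets had 7 higher and 3 lower of 19 (0.15). ATF4 stress genes had 5 higher and 10 lower of 36 (-0.10). Metallothionein and zinc genes had 2 higher and none lower of 7 (0.08), and cancer-testis antigens 1 higher and 3 lower of 8 (-0.13).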
